A study of Heliocidaris erythrogramma with 7 samples.

Results

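The interval between 16 and 20 hours post-fertilization (hpf) was examined in embryos of *Heliocidaris erythrogramma* (*He*), an Australian sea urchin whose yolk-fed larva does not need to eat before metamorphosis. Transcripts were counted by unique molecular identifiers (UMIs), tags that mark single captured molecules. Cells of the 20 hpf and 16 hpf libraries were kept if they had over 200 but under 4000 genes detected and under 10000 UMIs, which left 3564 of the 23156 cells of the series. Raw UMIs were summed over the cells of each library and scaled to a library total of 1000000 UMIs (CPM). Of 38707 gene models (features), the 8608 with at least 50 UMIs over both libraries were compared. The 7 libraries of the series cover 6, 9, 12, 16, 20, 24 and 30 hpf, with 1 library per time point. Both libraries came from untreated whole animals that were dissociated, fixed in methanol and run on the 10x Genomics 3′ v3.1 chemistry. How many animals went into a library was not stated in the sources used here.

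In sea urchins the ectoderm is patterned along an oral-aboral axis by Nodal, a secreted ligand of the TGFβ family, with its antagonist Lefty, and by BMP ligands with the antagonist Chordin. The mesoderm forms pigment cells, immune blastocoelar cells, skeletogenic cells and the coelomic pouches. In *He* the left coelomic pouch and the ectoderm over it build the adult rudiment, the group of tissues that becomes the juvenile, and they do so early in comparison with feeding larvae.

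The 20 hpf library held 3078 cells with 4797317 UMIs and a median of 1488 UMIs and 847.5 genes per cell. The 16 hpf library held 486 cells with 936734 UMIs and a median of 1861.5 UMIs and 1015 genes per cell. The earlier library was the smallest of the 7, since the others held 2065 to 5346 cells and 4797317 to 10769034 UMIs. A single UMI was worth 0.208 CPM at 20 hpf and 1.07 CPM at 16 hpf, so that 50 UMIs stood for 10.4 CPM at 20 hpf and for 53.4 CPM at 16 hpf. A gene had to be more abundant to reach the minimum through the 16 hpf library alone. The cell limits removed 0 cells from either library, 1 cell barcode occurred in both, and likely doublets were kept. Genes of ribosomal proteins took 7.36% of UMIs at 20 hpf and 5.64% at 16 hpf. Genes of the heat shock and dissociation response took 0.426% at 20 hpf and 0.415% at 16 hpf. With 1 library per time point no test between ages was possible. Every interval given here is an exact 95% interval that covers counting error only, not differences between cultures or between library preparations. In summed counts, fewer cells of a type and less RNA per cell cannot be told apart.

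Most features held their level between the libraries. The ratio of CPM at 20 hpf over CPM at 16 hpf was at least 2 for 389 features (4.52%) and at most 0.5 for 238 features (2.76%). The middle 50% of features lay between -0.29 and 0.34 on the log2 scale around a median of 0.02. The whole counting interval lay beyond 2-fold for 42 of the features higher at 20 hpf and for 59 of those lower at 20 hpf. Of the 627 features past 2-fold, 77 had an interval that covered a ratio of 1. The features past 2-fold on the higher side had a median of 91 UMIs at 20 hpf and of 7 UMIs at 16 hpf. Those on the lower side had a median of 88 UMIs at 20 hpf and of 45.5 UMIs at 16 hpf. At equal depth the larger number of higher features depended on which features were compared. With the 20 hpf library thinned to the 936734 UMIs of the 16 hpf library, 4966 features reached 50 UMIs. Of these, 129 were at least 2-fold higher and 174 at least 2-fold lower. Over the same 8608 features as before, thinning gave 495 higher and 446 lower. At the minimum itself, 9 of the 54 features with exactly 50 UMIs were at least 2-fold higher and 4 at least 2-fold lower, against 11 and 3 of the 63 features with 49 UMIs that were left out. When features of the same name were summed and unnamed features left out, 6829 genes were compared. Of these, 275 (4.03%) were at least 2-fold higher and 147 (2.15%) at least 2-fold lower, with a median log2 ratio of 0.02. Values below are for such summed genes unless a single feature is named. Counts of list members past 2-fold are to be read beside these shares of all genes, 4.03% and 2.15%.

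**Figure D1:**
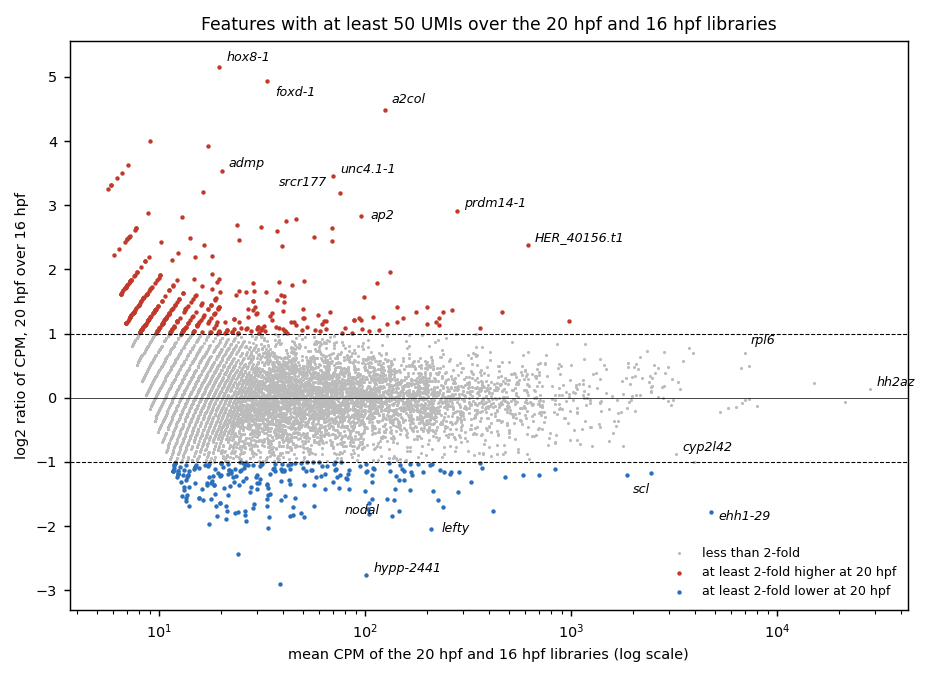
Each point is 1 of the 8608 features, with its mean CPM of both libraries on a log scale on the x axis and its log2 ratio (20 hpf over 16 hpf) on the y axis. Red points (389, less the 2 with no UMI at 16 hpf, which are not drawn) are at least 2-fold higher and blue points (238) at least 2-fold lower at 20 hpf, and the dashed lines mark 2-fold.

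By median ratio, the list of posterior, left and rudiment ectoderm genes stood highest of 33 gene lists. Members and lists were chosen with earlier results of these data known. Of its 25 genes, 22 reached 50 UMIs. Of these, 12 (54.5%) were at least 2-fold higher and 1 was at least 2-fold lower, beside 4.03% and 2.15% of all genes. Their median log2 ratio was 1.18. The 25 genes together had 3957 CPM at 20 hpf and 3843 CPM at 16 hpf (ratio 1.03, 0.993 to 1.07). The gene *prdm14-1*, which encodes a PR-domain transcriptional regulator, had 2356 UMIs (491 CPM) at 20 hpf, against 61 UMIs (65.1 CPM) at 16 hpf, a ratio of 7.54 (interval 5.85 to 9.89). The paired-class homeobox gene *unc4.1-1* had 617 UMIs (129 CPM) at 20 hpf and 11 UMIs (11.7 CPM) at 16 hpf, a ratio of 10.95 (6.08 to 22.1). Both were already detected at 16 hpf, and both intervals lay far above 2. The Hox gene *hox7*, a regulator of position along the body, had 1013 UMIs (211 CPM) at 20 hpf and 51 UMIs (54.4 CPM) at 16 hpf, a ratio of 3.88 (2.93 to 5.24).

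Other regulators of this list had smaller ratios. The Iroquois homeobox gene *irxa* had 158 CPM (760 UMIs) at 20 hpf and 54.4 CPM (51 UMIs) at 16 hpf, a ratio of 2.91 (2.19 to 3.94). The transcription factor of the Hedgehog pathway, *gli*, had 58.6 CPM (281 UMIs) at 20 hpf and 19.2 CPM (18 UMIs) at 16 hpf, a ratio of 3.05 (1.89 to 5.22). Homeobox genes with similar ratios were *nk1* (2.80, 1.78 to 4.66), *msx* (2.61, 1.52 to 4.86), *dlx* (2.28, 1.63 to 3.28) and *lox* (2.26, 1.31 to 4.23). The nuclear receptor gene *tll* had a ratio of 2.54 (1.24 to 6.04). All of these intervals lay above 1, but of them only that of *irxa* lay wholly above 2. The log2 ratio of *dlx* was 0.88 with the 20 hpf library thinned to the 16 hpf total, under 2-fold. The ligand gene *wnt3* had 58 UMIs (12.1 CPM) at 20 hpf and 1 UMI (1.07 CPM) at 16 hpf, a ratio of 11.3 whose interval ran from 1.95 to 455. Other members of the list did not reach 2-fold. The Wnt ligand gene *wnta* had 76.5 CPM at 20 hpf and 67.3 CPM at 16 hpf (ratio 1.14, 0.869 to 1.51). The SoxB transcription factor gene *soxb2* had 474 CPM at 20 hpf and 470 CPM at 16 hpf (ratio 1.01, 0.912 to 1.12).

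Markers assigned in the study to the ectoderm of the rudiment itself did not move as a block. The gene *egfi*, which encodes an EGF-repeat protein of the extracellular layer, had 1470 CPM at 20 hpf and 2370 CPM at 16 hpf (ratio 0.620, 0.591 to 0.651). The gene *fn3/egf-2* had 275 CPM at 20 hpf and 384 CPM at 16 hpf (ratio 0.714, 0.635 to 0.805). The bZIP transcription factor gene *giant* had 53 UMIs (11.05 CPM) at 20 hpf and 24 UMIs (25.6 CPM) at 16 hpf, a ratio of 0.431 (0.262 to 0.730), or -0.76 on the log2 scale when each cell counted equally, under 2-fold. The sum of the verified rudiment ectoderm markers *egfi*, *msx*, *dlx*, *wnt3* and *fn3/egf-2* was 1886 CPM at 20 hpf and 2810 CPM at 16 hpf, although 3 of the 5 were at least 2-fold higher at 20 hpf. Most of this sum was *egfi*. By contrast the posterior ectoderm markers *hox7*, *wnta*, *lox* and *msx* summed to 360 CPM at 20 hpf and 152 CPM at 16 hpf (ratio 2.38, 2.003 to 2.84). The study chose its 33 putative rudiment regulators from transcription factors with late expression peaks, in a course that included these ages. Ratios above 1 were therefore favoured by that choice. Of these 33, 23 reached 50 UMIs, 7 were at least 2-fold higher and 1 was at least 2-fold lower. Their median log2 ratio was 0.43, but 0.91 at a minimum of 200 UMIs and 0.87 with the 20 hpf library thinned to the 16 hpf total. The T-box gene *tbx6/16* had the largest ratio among them, with 63 UMIs at 20 hpf and 2 UMIs at 16 hpf (6.15, 1.63 to 51.9).

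**Figure D2:**
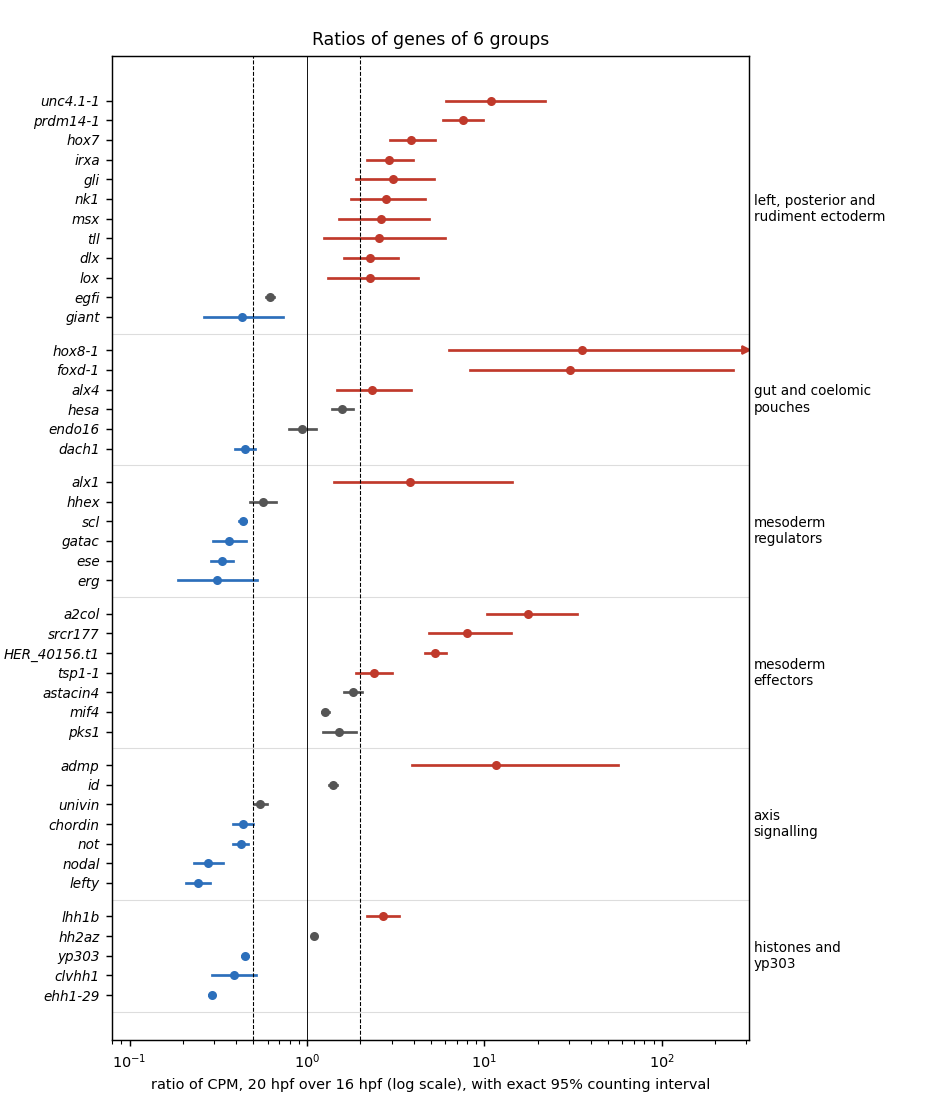
Points are ratios of CPM (20 hpf over 16 hpf, log scale) of named genes in 6 groups, with exact 95% counting intervals as bars and an arrowhead where an interval runs past 300. Red genes are at least 2-fold higher and blue genes at least 2-fold lower at 20 hpf. The points of *unc4.1-1*, *hox7*, *irxa*, *nk1*, *msx*, *dlx* and *lox* lie right of the line at 2, while those of *scl*, *gatac*, *ese*, *nodal* and *lefty* lie left of the line at 0.5.

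Genes that were higher at 20 hpf together with *prdm14-1* and with *hox7* lay in different cells. Cells were grouped by holding at least 3 UMIs of a gene, and such a group is named here by that gene. At 20 hpf, 362 cells held at least 3 UMIs of *prdm14-1* and 110 cells at least 3 UMIs of *hox7*, and 0 cells held both. The *prdm14-1* cells contributed 13.4% of all UMIs of the library but 51.4% (48.4 to 54.5) of the UMIs of *ap2*, 56.6% (51.5 to 61.5) of those of *glassl* and 54.9% (49.5 to 60.3) of those of *net*. These 3 genes, of which *ap2* encodes an AP-2 transcription factor, had 0 of their 20 hpf UMIs in *hox7* cells. In the summed libraries *ap2* had 222 CPM at 20 hpf and 32.0 CPM at 16 hpf (ratio 6.93, 4.82 to 10.3). The gene *glassl* had 81.1 CPM at 20 hpf and 11.7 CPM at 16 hpf (6.91, 3.82 to 13.9), and *net* had 71.7 CPM at 20 hpf and 10.7 CPM at 16 hpf (6.72, 3.61 to 14.1).

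The *hox7* cells contributed 3.93% of all UMIs at 20 hpf, but 51.7% (47.7 to 55.7) of the UMIs of *unc4.1-1*, 55.1% (47.7 to 62.3) of those of *msx*, 50% (42.1 to 57.9) of those of *lox* and 31.03% (19.5 to 44.5) of those of *wnt3*. The *irxa* UMIs lay elsewhere, with 52.4% (48.7 to 56.0) in the 486 cells with at least 3 UMIs of *hbn*, a homeobox gene of the animal pole, and 15.1% in *hox7* cells. At 16 hpf only 10 cells held at least 3 UMIs of *prdm14-1* and 3 cells at least 3 UMIs of *hox7*, which was too few to place these genes at that age.

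**Figure D3:**
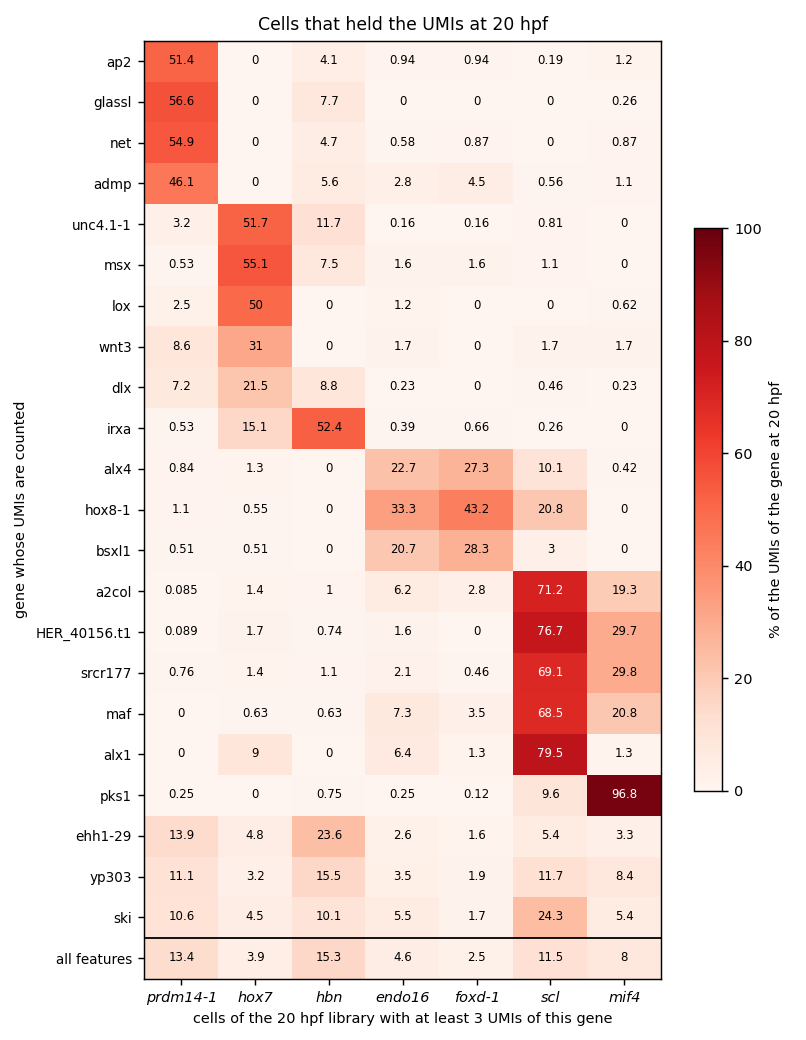
Each row is a gene and each column a set of 20 hpf cells with at least 3 UMIs of the gene named below it; numbers and shading give the percentage of that gene's 20 hpf UMIs found in those cells. A cell can be in more than 1 column. The bottom row gives the share of all UMIs for comparison, for example 51.4% of *ap2* in *prdm14-1* cells against 13.4% of all UMIs.

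The share of cells with a UMI moved in the same direction as the summed levels of the ectodermal regulators. To compare cells of unequal depth, each cell was thinned to 500 UMIs and the 155 shallower cells at 20 hpf and 35 at 16 hpf were left out. After thinning, *prdm14-1* was found in 13.8% (12.6 to 15.1) of cells at 20 hpf and in 3.104% (1.71 to 5.15) at 16 hpf, against 20.5% at 20 hpf and 5.97% at 16 hpf as deposited. As a background from cells that should lack it, 1.25% of the 240 pigment-type *mif4* cells at 20 hpf (median 1524 UMIs) and 2.44% of the 41 at 16 hpf (median 2248 UMIs) held a *prdm14-1* UMI as deposited. The *unc4.1-1* share after thinning was 4.45% (3.73 to 5.26) at 20 hpf and 0.443% (0.0538 to 1.59) at 16 hpf, against 7.73% at 20 hpf and 2.06% at 16 hpf as deposited. Of the *mif4* cells, 0 held an *unc4.1-1* UMI in either library, which allows a share of up to 1.25% at 20 hpf and 7.32% at 16 hpf. The *hox7* share was 4.82% (4.08 to 5.66) at 20 hpf and 1.55% (0.626 to 3.17) at 16 hpf after thinning, and 7.76% at 20 hpf and 6.17% at 16 hpf as deposited. A *hox7* UMI was also found in 18.7% of *scl* cells at 20 hpf and 22.4% at 16 hpf, against 1.85% of *hbn* cells at 20 hpf and 1.45% at 16 hpf, so part of its count at both ages lay in mesodermal *scl* cells.

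Among signalling genes of the oral-aboral axis, *nodal*, *lefty* and *chordin* were lower and *admp* was higher at 20 hpf. Of 27 listed genes of Nodal, BMP and axis signalling, 24 reached 50 UMIs, 4 were at least 2-fold higher and 4 at least 2-fold lower, with a median log2 ratio of -0.30. The gene *lefty* had 393 UMIs (81.9 CPM) at 20 hpf and 315 UMIs (336 CPM) at 16 hpf, a ratio of 0.244 (0.210 to 0.283). Its target of antagonism, *nodal*, had 282 UMIs (58.8 CPM) at 20 hpf and 198 UMIs (211 CPM) at 16 hpf, a ratio of 0.278 (0.231 to 0.335). The homeobox gene *not*, which acts downstream of Nodal in sea urchins, had 286 CPM at 20 hpf and 675 CPM at 16 hpf (0.423, 0.385 to 0.466). The BMP antagonist gene *chordin* had 158 CPM at 20 hpf and 361 CPM at 16 hpf (0.437, 0.384 to 0.498). The TGFβ ligand gene *univin*, which is maternally supplied in sea urchins and acts with Nodal, had 432 CPM at 20 hpf and 789 CPM at 16 hpf, a smaller difference (0.547, 0.503 to 0.596).

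The BMP-family ligand gene *admp* ran the other way, with 178 UMIs (37.1 CPM) at 20 hpf and 3 UMIs (3.20 CPM) at 16 hpf, a ratio of 11.6 (3.90 to 56.7). Of its 20 hpf UMIs, 46.1% (38.6 to 53.7) lay in *prdm14-1* cells. The other members at least 2-fold higher were the homeobox genes *irxa*, *msx* and *dlx*, whose ratios are given above. Of these, *msx* and *dlx* are induced by BMP signalling in many animals. Further genes of that kind, *id* and *smad6/7*, differed less. The gene *id*, which encodes an inhibitor of bHLH factors, had 2196 CPM at 20 hpf and 1570 CPM at 16 hpf (1.398, 1.32 to 1.48). The inhibitory Smad gene *smad6/7* had 684 CPM at 20 hpf and 506 CPM at 16 hpf (1.35, 1.23 to 1.49). The oral ectoderm homeobox gene *gsc* had 110 CPM at 20 hpf and 98.2 CPM at 16 hpf (1.12, 0.897 to 1.41), an interval that covered 1. The Smad co-repressor gene *ski* had 952 UMIs (198 CPM) at 20 hpf and 666 UMIs (711 CPM) at 16 hpf, a ratio of 0.279 (0.253 to 0.309).

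A smaller share of cells held the Nodal-side transcripts at 20 hpf. After thinning, *lefty* was found in 3.63% (2.98 to 4.37) of cells at 20 hpf and 12.6% (9.71 to 16.1) at 16 hpf, and as deposited in 8.51% at 20 hpf and 26.7% at 16 hpf. For *nodal* the thinned shares were 2.63% (2.08 to 3.28) at 20 hpf and 6.65% (4.53 to 9.36) at 16 hpf, and those as deposited 7.31% at 20 hpf and 22.2% at 16 hpf. Only 0.346% of *scl* cells at 20 hpf and 0 of 58 at 16 hpf (which allows a share of up to 5.17%) held a *lefty* UMI. A *chordin* UMI was found in 5.85% (5.03 to 6.76) of thinned cells at 20 hpf and 12.6% (9.71 to 16.1) at 16 hpf, and as deposited in 12.3% at 20 hpf and 22.6% at 16 hpf. Without thinning, cells with at least 3 UMIs of *chordin* made up 3.15% (2.56 to 3.83) of cells at 20 hpf (97 cells) and 12.6% (9.74 to 15.8) at 16 hpf (61 cells). Among these, 60 of 97 also held at least 3 UMIs of *prdm14-1* at 20 hpf, against 7 of 61 at 16 hpf.

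Within the *chordin* cells, *prdm14-1* had 2297 CPM at 20 hpf and 241 CPM at 16 hpf (9.54, 6.81 to 13.7), and *ap2* had 1074 CPM at 20 hpf and 91.1 CPM at 16 hpf (11.8, 6.87 to 21.9). The TALE homeobox gene *tgif* had 434 UMIs at 20 hpf and 2 UMIs at 16 hpf in these cells, a ratio of 171 (46.9 to 1413). Over the whole libraries it had 769 CPM at 20 hpf and 471 CPM at 16 hpf (1.63, 1.48 to 1.81). The pigment-cell gene *mif4* had 95 UMIs at 20 hpf and 6 UMIs at 16 hpf in them (12.4, 5.51 to 34.8). In each library 1 *chordin* cell also held at least 3 UMIs of *mif4*, and likely doublets were kept. The parts of doublets and of free RNA in these counts were not tested. In the same cells *nodal* (0.218, 0.138 to 0.334), *lefty* (0.349, 0.257 to 0.468) and the Krüppel-like gene *klf2/4* (0.124, 0.0540 to 0.252) were lower at 20 hpf. Since a gate on *chordin* selects different shares of the 2 libraries, these are values of the gated cells and not of 1 cell type followed over time.

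The anterior cells showed the same contrast. In *hbn* cells (486 at 20 hpf, 69 at 16 hpf) *lefty* had 45.1 CPM at 20 hpf and 324 CPM at 16 hpf (0.139, 0.0868 to 0.220). *Nodal* had 38.2 CPM at 20 hpf and 233 CPM at 16 hpf (0.164, 0.0963 to 0.276), and *not* had 251 CPM at 20 hpf and 842 CPM at 16 hpf (0.298, 0.237 to 0.376). The *irxa* level in these cells was 543 CPM at 20 hpf and 214 CPM at 16 hpf (2.54, 1.78 to 3.74), and *unc4.1-1* had 72 UMIs at 20 hpf and 0 at 16 hpf. Genes of the animal pole had mixed ratios over the whole libraries. The homeobox gene *hbn* had 857 CPM at 20 hpf and 679 CPM at 16 hpf (1.26, 1.16 to 1.37), and *six3* had 535 CPM at 20 hpf and 599 CPM at 16 hpf (0.893, 0.815 to 0.980). The forkhead gene *foxq2-1* had 104 CPM at 20 hpf and 232 CPM at 16 hpf (0.450, 0.383 to 0.530). The Frizzled receptor gene *fzd5/8* had 142 CPM at 20 hpf and 215 CPM at 16 hpf (0.661, 0.564 to 0.777). Another forkhead gene, *foxg*, was higher, with 1815 UMIs (378 CPM) at 20 hpf and 138 UMIs (147 CPM) at 16 hpf (2.57, 2.16 to 3.08). It was found in 13.7% (12.5 to 15.0) of thinned cells at 20 hpf and 7.54% (5.28 to 10.4) at 16 hpf, and as deposited in 26.6% at 20 hpf and 18.1% at 16 hpf. Of *mif4* cells, 3.33% at 20 hpf and 2.44% at 16 hpf held a *foxg* UMI. Of the 13 animal pole genes with at least 50 UMIs, 1 was at least 2-fold higher and 1 at least 2-fold lower, with a median log2 ratio of 0.02.

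Regulators of the coelomic pouches included the highest ratios of named genes. The forkhead gene *foxd-1*, a marker of the gut and left coelomic pouch, had 312 UMIs (65.0 CPM) at 20 hpf and 2 UMIs (2.14 CPM) at 16 hpf, a ratio of 30.5 (8.36 to 253). The Hox gene *hox8-1* had 183 UMIs (38.1 CPM) at 20 hpf and 1 UMI (1.07 CPM) at 16 hpf, a ratio of 35.7 (6.33 to 1419). Both lower bounds were far above 2, and the upper bounds were wide because the 16 hpf counts were so low. The homeobox gene *alx4* had 49.6 CPM at 20 hpf and 21.4 CPM at 16 hpf (2.32, 1.47 to 3.87), and *bsxl1* had 41.3 CPM at 20 hpf and 7.47 CPM at 16 hpf (5.52, 2.63 to 13.9). At 20 hpf, 43.2% (35.9 to 50.7) of *hox8-1*, 27.3% (21.8 to 33.4) of *alx4* and 28.3% (22.1 to 35.1) of *bsxl1* UMIs lay in the 51 cells with at least 3 UMIs of *foxd-1*, which held 2.51% of all UMIs. At 16 hpf, 0 of 486 cells held 3 UMIs of *foxd-1*, which allows a share of up to 0.617% by a count of 3 and up to 0.756% by the exact interval.

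The gut marker *endo16*, by contrast, had 157 CPM at 20 hpf and 167 CPM at 16 hpf (0.943, 0.792 to 1.13), and was found in 5.71% (4.90 to 6.62) of thinned cells at 20 hpf and 6.21% (4.16 to 8.85) at 16 hpf (as deposited 11.9% at 20 hpf and 14.6% at 16 hpf). Within *endo16* cells (90 at 20 hpf, 20 at 16 hpf) *foxd-1* had 71 UMIs at 20 hpf and 1 UMI at 16 hpf (15.1, 2.63 to 605), and *hox8-1* had 61 UMIs at 20 hpf and 0 at 16 hpf. In these cells *six3* (0.302, 0.223 to 0.411), the forkhead gene *foxy* (0.370, 0.204 to 0.688) and *dach1*, the homologue of *dachshund* (0.398, 0.277 to 0.580), were lower at 20 hpf. Over the whole libraries *dach1* had 161.97 CPM at 20 hpf and 360 CPM at 16 hpf (0.450, 0.396 to 0.513). The Hes-family repressor gene *hesa* had 389 CPM at 20 hpf and 246 CPM at 16 hpf (1.58, 1.38 to 1.82). Of 27 gut and coelomic pouch genes, 18 reached 50 UMIs, 4 were at least 2-fold higher and 2 at least 2-fold lower, with a median log2 ratio of 0.22.

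In the mesoderm, the regulators *scl*, *gatac*, *ese* and *erg* were lower at 20 hpf and several effectors of blastocoelar cells were higher, but neither list moved as a whole. The bHLH gene *scl*, a regulator of blood and immune cells in vertebrates, had 5446 UMIs (1135 CPM) at 20 hpf and 2444 UMIs (2609 CPM) at 16 hpf, a ratio of 0.435 (0.415 to 0.457). The GATA factor gene *gatac* had 53.4 CPM at 20 hpf and 146 CPM at 16 hpf (0.365, 0.295 to 0.452). The Ets factor gene *ese* had 113 CPM at 20 hpf and 341 CPM at 16 hpf (0.331, 0.288 to 0.381), and another, *erg*, had 8.96 CPM at 20 hpf and 28.8 CPM at 16 hpf (0.311, 0.188 to 0.523). The receptor tyrosine kinase gene *tie1/2* had 51.1 CPM at 20 hpf and 109 CPM at 16 hpf (0.469, 0.371 to 0.597), and the homeobox gene *hhex* had 115 CPM at 20 hpf and 204 CPM at 16 hpf (0.562, 0.476 to 0.666). Of 36 mesoderm regulators, 25 reached 50 UMIs, 4 were at least 2-fold higher and 4 at least 2-fold lower, with a median log2 ratio of 0.26. Among those at least 2-fold higher were *alx1*, *alx4* and the forkhead gene *foxc* (2.15, 1.04 to 5.13), which are genes of skeletogenic and coelomic mesoderm. With each cell counting equally the log2 ratios of *alx4* (0.91) and *foxc* (0.81) were under 2-fold, as was that of *foxc* (0.46) with the 20 hpf library thinned.

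Among effectors was a gene of a large immune response family of sea urchin phagocytes, named here HER_40156.t1 after the main one of its 5 features. It had 5639 UMIs (1175 CPM) at 20 hpf and 208 UMIs (222 CPM) at 16 hpf, a ratio of 5.29 (4.61 to 6.11). The gene *a2col*, named for a collagen chain, had 1177 UMIs (245 CPM) at 20 hpf and 13 UMIs (13.9 CPM) at 16 hpf, a ratio of 17.7 (10.3 to 33.3). The scavenger receptor gene *srcr177* had 657 UMIs (137 CPM) at 20 hpf and 16 UMIs (17.1 CPM) at 16 hpf, a ratio of 8.02 (4.90 to 14.1). These 3 genes are each spread over several gene models, whose reads may have been divided between copies during counting. Smaller differences were found in the thrombospondin gene *tsp1-1*, with 216 CPM at 20 hpf and 90.7 CPM at 16 hpf (2.38, 1.90 to 2.999), and in the astacin metalloprotease gene *astacin4*, with 671 CPM at 20 hpf and 368 CPM at 16 hpf (1.82, 1.63 to 2.04). The bZIP gene *maf* had 66.1 CPM at 20 hpf and 12.8 CPM at 16 hpf (5.16, 2.91 to 10.1), and the fibrillar collagen fragment *fcoli/ii/iiif* had 142 UMIs at 20 hpf and 3 UMIs at 16 hpf (9.24, 3.099 to 45.4). Of the 70 listed blastocoelar and immune genes with at least 50 UMIs, 6 were at least 2-fold higher and 6 at least 2-fold lower, with a median log2 ratio of 0.01. Those lower were *macpfa2* (0.380, 0.251 to 0.584), *tlrp19* (0.411, 0.298 to 0.574), *nlr188* (0.427, 0.230 to 0.826), *tlr143* (0.452, 0.245 to 0.869), *nlr178* (0.479, 0.335 to 0.697) and the scavenger receptor gene *srcr142* (0.4995, 0.416 to 0.602). All of them but *macpfa2* and *tlrp19* were under 2-fold in at least 1 alternative setting. Among those higher, *srcr101* (log2 ratio 1.92) and *nlr29* (1.32) were under 2-fold when each cell counted equally (0.70 and 0.999).

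The regulators *gatac*, *ese* and *erg* and the effectors *a2col*, *srcr177* and HER_40156.t1 differed in opposite directions within *scl* cells as well. At 20 hpf, 289 cells (9.39%, 8.38 to 10.5) held at least 3 UMIs of *scl* and at 16 hpf 58 cells (11.9%, 9.19 to 15.2), with median depths of 1867 UMIs at 20 hpf and 2334.5 UMIs at 16 hpf. These cells held 76.7% (75.6 to 77.8) of the HER_40156.t1 UMIs, 71.2% (68.5 to 73.8) of those of *a2col* and 69.1% (65.4 to 72.6) of those of *srcr177* at 20 hpf. Within them *a2col* had 1516 CPM at 20 hpf and 60.03 CPM at 16 hpf (25.3, 12.8 to 58.7). *Srcr177* had 821 CPM at 20 hpf and 45.0 CPM at 16 hpf (18.2, 8.32 to 49.96), and HER_40156.t1 had 7825 CPM at 20 hpf and 1456 CPM at 16 hpf (5.38, 4.65 to 6.24). In the same cells *gatac* had 268 CPM at 20 hpf and 743 CPM at 16 hpf (0.360, 0.278 to 0.4696). *Ese* had 662 CPM at 20 hpf and 2101 CPM at 16 hpf (0.315, 0.269 to 0.369), and *erg* had 61.5 CPM at 20 hpf and 195 CPM at 16 hpf (0.315, 0.184 to 0.547). The gate gene *scl* was itself lower in these cells at 20 hpf (0.531, 0.506 to 0.557). The gate may therefore select different cells at the 2 ages.

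Shares of cells showed the same order. A HER_40156.t1 UMI was found in 86.5% (82.0 to 90.2) of *scl* cells at 20 hpf and in 58.6% (44.9 to 71.4) at 16 hpf. An *a2col* UMI was found in 61.9% (56.1 to 67.6) at 20 hpf and 6.90% (1.91 to 16.7) at 16 hpf, although the 16 hpf cells were deeper. The background in *hbn* cells (median 1415 UMIs at 20 hpf and 1960 at 16 hpf) was 1.03% at 20 hpf and 1.45% at 16 hpf for HER_40156.t1, and 2.47% at 20 hpf and 2.90% at 16 hpf for *a2col*. Over all thinned cells HER_40156.t1 was found in 11.4% (10.3 to 12.6) at 20 hpf and 4.66% (2.91 to 7.03) at 16 hpf, against 12.9% at 20 hpf and 8.85% at 16 hpf as deposited. Each cell that held it as deposited had on average 14.2 UMIs at 20 hpf and 4.84 UMIs at 16 hpf. *Scl* was found in 10.4% (9.35 to 11.6) of thinned cells at 20 hpf and 14.0% (10.9 to 17.5) at 16 hpf, intervals that overlapped. As deposited it had 13.3 UMIs per positive cell at 20 hpf and 25.7 at 16 hpf, in 13.3% of cells at 20 hpf and 19.5% at 16 hpf. *Ese* was found in 4.11% (3.42 to 4.89) of thinned cells at 20 hpf and in 12.2% (9.32 to 15.6) at 16 hpf (as deposited 10.3% at 20 hpf and 17.5% at 16 hpf). *Gatac* was found in 1.78% (1.33 to 2.33) at 20 hpf and in 6.21% (4.16 to 8.85) at 16 hpf (as deposited 4.58% at 20 hpf and 11.7% at 16 hpf).

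Several pigment-cell genes were modestly higher at 20 hpf, but the pigment list did not move as a whole. The macrophage migration inhibitory factor gene *mif4* had 2707 CPM at 20 hpf and 2130 CPM at 16 hpf (1.27, 1.21 to 1.33) and was found in 9.58% (8.54 to 10.7) of thinned cells at 20 hpf and 9.76% (7.18 to 12.9) at 16 hpf (as deposited 13.5% at 20 hpf and 16.3% at 16 hpf). The polyketide synthase gene *pks1*, needed for the echinochrome pigment, had 167 CPM at 20 hpf and 110 CPM at 16 hpf (1.52, 1.24 to 1.89). The sulfotransferase gene *sult1c-2* had 465 CPM at 20 hpf and 270 CPM at 16 hpf (1.72, 1.51 to 1.97). Within *mif4* cells (240 at 20 hpf, 41 at 16 hpf) the ratio was 2.05 (1.66 to 2.56) for *pks1* and 2.27 (1.99 to 2.60) for *sult1c-2*. In these cells *scl* had 1886 CPM at 20 hpf and 5790 CPM at 16 hpf (0.326, 0.291 to 0.364) and *ese* 249 CPM at 20 hpf and 1033 CPM at 16 hpf (0.241, 0.180 to 0.321). The *mif4* and *scl* gates overlapped by 57 cells at 20 hpf and 16 cells at 16 hpf. Of 21 pigment genes with at least 50 UMIs, 3 were at least 2-fold higher and 0 at least 2-fold lower, with a median log2 ratio of -0.06.

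Of 154 listed skeletogenic effectors, 129 were under 50 UMIs. All 154 together summed to 1128 CPM at 20 hpf and 1221 CPM at 16 hpf (0.923, 0.866 to 0.985). Of the 25 with at least 50 UMIs, mostly named for C-type lectin domains, 3 were at least 2-fold higher and 2 at least 2-fold lower. The highest count among those higher was that of *clect-110*, with 168 CPM at 20 hpf and 82.2 CPM at 16 hpf (2.05, 1.62 to 2.62), which was under 2-fold with the 20 hpf library thinned and without the deepest 5% of cells. At 20 hpf, 296 of its UMIs lay in anterior *hbn* cells, where its ratio was 2.15 (1.47 to 3.27). Another member, *clect-28*, had 300 UMIs in *mif4* cells at 20 hpf. The levels of these 2 genes were thus not those of skeletogenic cells alone. The regulator *alx1*, which drives the skeletogenic program in sea urchins, had 78 UMIs (16.3 CPM) at 20 hpf and 4 UMIs (4.27 CPM) at 16 hpf, a ratio of 3.81 (1.43 to 14.3), and 79.5% (68.8 to 87.8) of its 20 hpf UMIs lay in *scl* cells. The spicule matrix gene *sm50* had 1 UMI at 20 hpf and 0 at 16 hpf, and the biomineralization gene *msp130r2* had 38 UMIs at 20 hpf and 1 UMI at 16 hpf (7.42, 1.25 to 301). Its relative *msp130r4* had 61 UMIs at 20 hpf and 5 UMIs at 16 hpf (2.38, 0.967 to 7.598), an interval that covered 1. Among genes listed as neural, the calmodulin-like gene *calml1* had 5276 CPM at 20 hpf and 4332 CPM at 16 hpf (1.22, 1.18 to 1.26). It was found in 95.7% of cells at 20 hpf and 93.8% at 16 hpf as deposited, and *scl* cells held 36.5% (36.0 to 37.1) of its UMIs at 20 hpf and 40.7% (39.2 to 42.2) at 16 hpf, so its level was not that of neural cells alone. The ciliary band homeobox gene *onecut* had 192 CPM at 20 hpf and 163 CPM at 16 hpf (1.18, 0.991 to 1.41). Of 12 neural differentiation genes with at least 50 UMIs 1 was at least 2-fold higher, the transcription factor gene *ebf*, with 89 UMIs at 20 hpf and 6 UMIs at 16 hpf (2.90, 1.28 to 8.10).

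Several transcripts of the early embryo were lower at 20 hpf. The linker histone gene *ehh1-29*, named for early histone H1, had 10361 UMIs (2160 CPM) at 20 hpf and 6977 UMIs (7448 CPM) at 16 hpf, a ratio of 0.290 (0.281 to 0.299). Its cleavage-stage counterpart *clvhh1* had 31.5 CPM at 20 hpf and 81.1 CPM at 16 hpf (0.388, 0.293 to 0.518). Other histone genes named for early stages were not lower by such amounts. *Ehh3-57* had 1248 CPM at 20 hpf and 1107 CPM at 16 hpf (1.13, 1.06 to 1.21), and *ehh2a-67* had 341 CPM at 20 hpf and 366 CPM at 16 hpf (0.931, 0.828 to 1.05). By contrast *lhh1b*, named for late histone H1, was higher, with 291 CPM at 20 hpf and 109 CPM at 16 hpf (2.67, 2.18 to 3.30). The most abundant histone gene, *hh2az*, had 29431 CPM at 20 hpf and 26910 CPM at 16 hpf (1.09, 1.08 to 1.11). The 21 histone genes with at least 50 UMIs had a median log2 ratio of 0.08, with 2 at least 2-fold higher and 2 at least 2-fold lower.

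The yolk platelet protein gene *yp303*, summed over 16 gene models that may share reads, had 1805 CPM at 20 hpf and 4053 CPM at 16 hpf (0.445, 0.428 to 0.463). Its relative *yp30/fascl-5* had 303 CPM at 20 hpf and 743 CPM at 16 hpf (0.407, 0.372 to 0.447). A *yp303* UMI was found in 55.7% (53.8 to 57.5) of thinned cells at 20 hpf and 80.5% (76.5 to 84.0) at 16 hpf, against 87.0% at 20 hpf and 98.4% at 16 hpf as deposited. The apolipoprotein gene *apob* ran the other way, with 309 CPM at 20 hpf and 137 CPM at 16 hpf (2.26, 1.89 to 2.73). The cyclin gene *ccnr2* (0.305, 0.203 to 0.463) and the guanylate cyclase gene *guan/cyc* (0.347, 0.189 to 0.657), which mark undifferentiated cells in the study, were also lower at 20 hpf. The cyclin had 64 UMIs at 20 hpf and 41 UMIs at 16 hpf. Of 6 early ectoderm and undifferentiated markers with at least 50 UMIs, 4 were at least 2-fold lower and 0 at least 2-fold higher. The other 2, *el1l4* and *c8orf48l*, differed by less than 2-fold. Not all of the 6 were lower, since the highest log2 ratio among them was 0.34. Their median log2 ratio was -1.27, but -0.53 at a minimum of 200 UMIs. The *yp303* UMIs of the 20 hpf library were spread over cells nearly as all UMIs were. They lay to 11.1% in *prdm14-1* cells, 15.5% in *hbn* cells and 11.7% in *scl* cells, which held 13.4%, 15.3% and 11.5% of all UMIs.

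In absolute level the largest gains were in highly abundant genes. The ribosomal protein gene *rpl6* had 8661 CPM at 20 hpf and 5355 CPM at 16 hpf (1.62, 1.57 to 1.67), followed among single features by *hh2az*, *rpip1*, the ferritin heavy chain gene *ferhc* and *rpl37a*. Not all of these gains were general. The ratio of *ferhc* was 1.43 (1.37 to 1.49) in *mif4* cells and 1.01 (0.959 to 1.06) in *scl* cells. That of *hh2az* was 1.21 (1.17 to 1.25) in *hbn* cells and 0.846 (0.804 to 0.891) in *mif4* cells. The ribosomal protein genes together had 73572 CPM at 20 hpf and 56362 CPM at 16 hpf, a ratio of 1.31. Their median log2 ratio was 0.19 over 58 genes, of which only *rps2* reached 2-fold (2.67, 2.10 to 3.43). The largest losses in CPM were in *ehh1-29*, *polyq*, the cytochrome P450 gene *cyp2l42*, an unnamed feature and *scl*. The *polyq* level was 2650 CPM at 20 hpf and 5283 CPM at 16 hpf (0.502, 0.485 to 0.518), and that of *cyp2l42* was 2268 CPM at 20 hpf and 4172 CPM at 16 hpf (0.544, 0.524 to 0.564). The unnamed feature HER_16128.t1 had 1492 CPM at 20 hpf and 3379 CPM at 16 hpf (0.442, 0.424 to 0.461). Translation factors (40 genes, 0 past 2-fold) and cytoskeletal genes (34 genes, 0 past 2-fold) had median log2 ratios of 0.07 and -0.03. Of 47 cell cycle and replication genes 1 was at least 2-fold higher and 2 at least 2-fold lower.

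Pathway genes beyond the axis ligands mostly held their level. Of 18 Wnt pathway genes with at least 50 UMIs, 2 were at least 2-fold higher and 1 at least 2-fold lower, with a median log2 ratio of 0.07. The higher ones were *wnt3* and the receptor gene *fzd4* (23.1 CPM at 20 hpf, 6.41 CPM at 16 hpf, ratio 3.61, 1.61 to 10.1). The lower one was *dsh*, the intracellular transducer Dishevelled (61.5 CPM at 20 hpf, 128 CPM at 16 hpf, ratio 0.480, 0.387 to 0.599), which was -0.98 on the log2 scale, under 2-fold, with median-of-ratios scaling. Of 16 Notch, Hedgehog, FGF and VEGF genes, those at least 2-fold higher were *gli* and the Hedgehog transducer *smo* (24.4 CPM at 20 hpf, 10.7 CPM at 16 hpf, ratio 2.28, 1.20 to 4.89). The 1 at least 2-fold lower was *tie1/2*. Across 33 gene lists, 26 had a median log2 ratio within 0.25 of 0, and the posterior, left and rudiment ectoderm list was the 1 list whose median was above 0.5. The putative rudiment transcription factor list also passed 0.5 in 3 alternative settings, with 0.51 under median-of-ratios scaling, 0.91 at a minimum of 200 UMIs and 0.87 after thinning. Its genes were chosen in the study for late peaks in a course that included these ages, which favours ratios above 1.

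**Figure D4:**
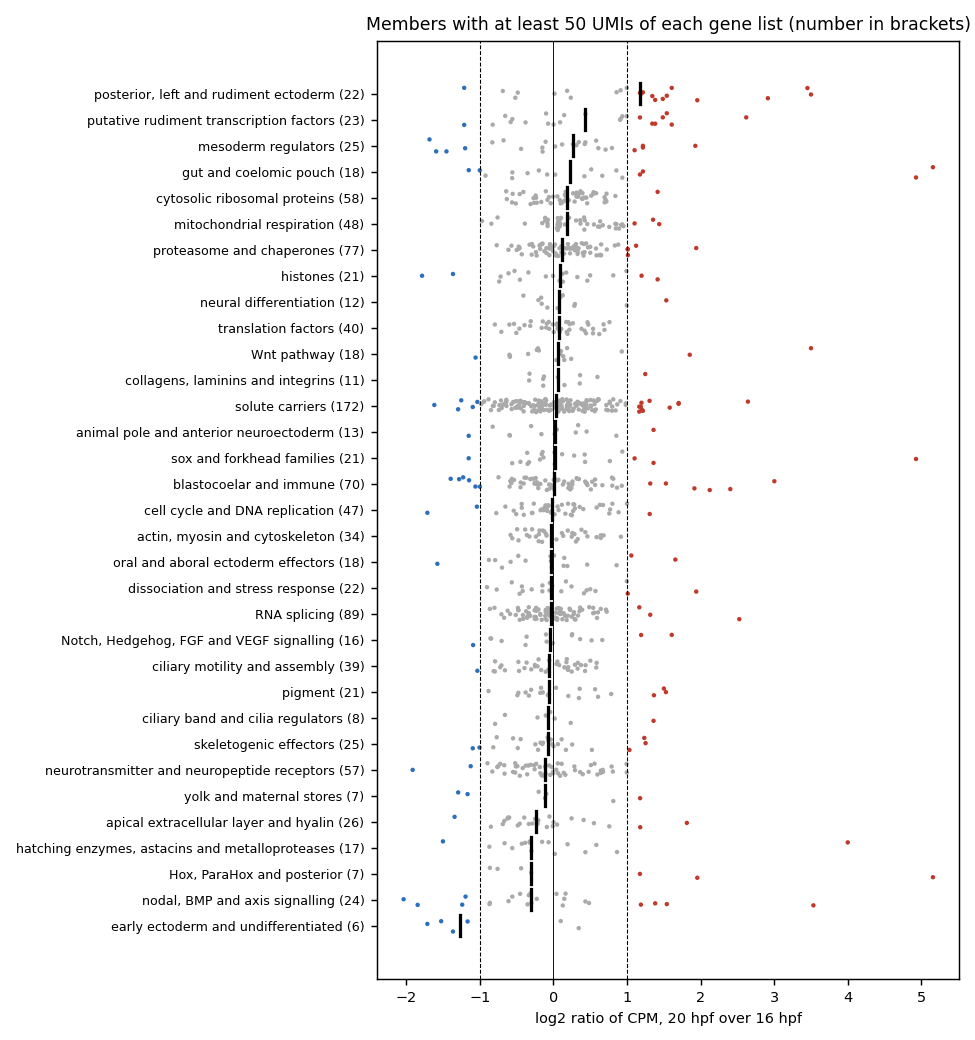
Each point is a gene with at least 50 UMIs over both libraries, placed by its log2 ratio of CPM (20 hpf over 16 hpf) in the list it belongs to, with the number of genes in brackets; black bars are list medians and dashed lines mark 2-fold. The posterior, left and rudiment ectoderm list has its median at 1.18 and the early ectoderm and undifferentiated list at -1.27, and most other medians lie near 0.

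The place of the 2 libraries in the whole course differed between these groups. The *prdm14-1* level over 6, 9, 12, 16, 20, 24 and 30 hpf was 1.403, 0.650, 1.48, 65.1, 491, 374 and 444 CPM, so most of its gain fell between 16 and 20 hpf. The *hox7* level was 2.46, 33.5, 4.56, 54.4, 211, 328 and 445 CPM. The *a2col* level was 7.37, 5.94, 2.22, 13.9, 245, 631 and 1009 CPM, and both were higher still in the later libraries. *Foxd-1*, with 0.246 CPM at 12 hpf, 2.14 CPM at 16 hpf, 65.0 CPM at 20 hpf and 68.5 CPM at 30 hpf, was at its later level by 20 hpf.

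The mesodermal regulators *scl* and *gatac* and the early transcripts *ehh1-29* and *yp303* were already below their peak at 16 hpf. *Scl* was highest at 12 hpf, with 3554 CPM, and *gatac* also, with 451 CPM, against 2609 and 146 CPM at 16 hpf. *Ehh1-29* was highest at 9 hpf (112152 CPM) and *yp303* at 6 hpf (29704 CPM). The Nodal-side genes did not follow a steady course. *Nodal* had 9.65, 168, 113, 211, 58.8, 213 and 46.3 CPM over the 7 ages. *Lefty* had 17.5, 255, 158, 336, 81.9, 243 and 36.3 CPM, so both were lower at 20 hpf than at 16 and at 24 hpf. *Not* had the same shape, with 675 CPM at 16 hpf, 286 CPM at 20 hpf and 397 CPM at 24 hpf, whereas *chordin* had 361, 158 and 94.4 CPM at these ages. *Admp* was highest at 20 hpf (37.1 CPM), with 3.20 CPM at 16 hpf and 9.66 CPM at 24 hpf.

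**Figure D5:**
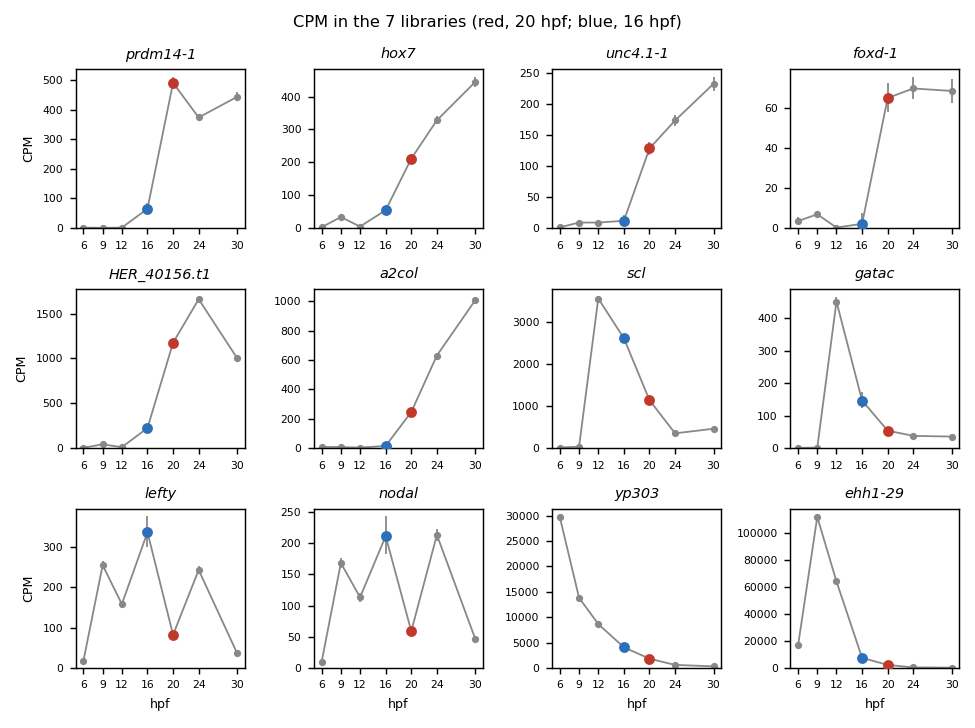
CPM of 12 genes (y axis, linear from 0) in the 7 libraries from 6 to 30 hpf (x axis), with exact Poisson 95% intervals that cover counting error only; the 20 hpf value is red and the 16 hpf value blue. The *prdm14-1* level is higher at the later of these ages, that of *scl* lower, and *nodal* and *lefty* have a low point at 20 hpf between higher values at 16 and 24 hpf.

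The interval held fewer features past 2-fold than the earlier ones when all libraries were thinned to the 16 hpf total of 936734 UMIs. At that depth 40.3% of features with at least 50 UMIs were past 2-fold in either direction between 6 and 9 hpf, 36.6% between 9 and 12 hpf, 23.5% between 12 and 16 hpf, 6.1% between 16 and 20 hpf, 8.58% between 20 and 24 hpf and 6.75% between 24 and 30 hpf. For 16 to 20 hpf this was 303 of 4966 features. These steps differ in length and each rests on 1 library per age.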

How the data were processed

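Gene counts were deposited by the authors as 10x matrices of whole-number UMI counts, made with Cell Ranger 3.1.0 (per the labels, which also name Seurat 4.0). The genome build was not given in the sources used here, and no genome was used. Raw counts of each library's kept cells were summed, scaled to CPM and compared as ratios with exact conditional-binomial intervals. CPM have exact Poisson intervals and shares exact Clopper-Pearson intervals, and where a count is 0 the upper limit is 3 counts of the total. Doublets were kept. Some genes are not reported here. HER_40156.t1 stands for the sum of 5 features of 1 gene name. The ratio code was tested on simulated data. Python 3.11.15, numpy 2.4.6, scipy 1.17.1, pandas 2.3.3 and matplotlib 3.10.9 were used.

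Named genes were the 12 features with the highest lower bounds and the 12 with the lowest upper bounds of the ratio, the 5 largest rises and falls in CPM, and up to 8 genes past 2-fold per direction and 4 others in each of 33 gene lists. The members and lists were chosen with earlier results of these data known, and names matched to a list by spelling alone (12 patterns) were left out. The genes *maf*, *glassl*, *net*, *bsxl1* and *fcoli/ii/iiif*, the study's markers and the gate genes were added after their values were seen. Alternatives changed the scaling, the weight of a cell, the filters on cells and features, shared barcodes, depth and the gate.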

Additional observations from a re-analysis of the deposited data

How the results depend on the processing

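Scaling by median-of-ratios size factors gave 465 features at least 2-fold higher and 191 at least 2-fold lower at 20 hpf, against 389 and 238 with CPM, and moved the median of all features by 0.08 on the log2 scale. Leaving out ribosomal protein features (415 and 216), weighting cells equally (449 and 286), requiring over 500 genes per cell (400 and 243), leaving out the deepest 5% of cells (374 and 248), leaving out shared barcodes (388 and 240) and summing features of 1 name with unnamed features kept (336 and 181) stayed within 1.5 times these counts. The counts depended on the minimum of UMIs, with 878 higher and 542 lower at 20 UMIs, 98 higher and 88 lower at 200 UMIs, and 5812 higher and 2988 lower at 1 UMI. Thinning the 20 hpf library to the 16 hpf total, with the same 8608 features, gave 495 higher and 446 lower. Of 116 named genes past 2-fold, 92 stayed past 2-fold under every setting and 24 did not under at least 1, among them *dlx*, *alx4*, *foxc*, *giant* and *dsh*. The median of the gut and coelomic pouch list was 0.22, but -0.11 without the deepest 5% of cells, and that of the Wnt list 0.07, but -0.21 at 200 UMIs. The share of cells with *smad6/7* was 2.66 percentage points higher at 20 hpf after thinning and 2.36 points lower as deposited. Gating cells on 1 UMI in place of 3, an alternative chosen after seeing the data, moved 58 of 517 ratios within gated cells outside their counting interval and reversed 0 of those past 2-fold. No paired analysis was possible because each age has 1 library. The 936734 UMIs of the 16 hpf library set the width of most intervals.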

Other observations

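Features outside the named groups also stood apart. The name *ttnl*, for titin-like, covers 7 features, and 2 of them differed in opposite directions. Feature HER_43364.t1 had 127 UMIs at 20 hpf and 0 at 16 hpf, which is at least 8.27-fold higher against a floor of 3 UMIs in the 16 hpf library (exact lower bound 6.63). Feature HER_43359.t1 had 34 UMIs at 20 hpf and 26 UMIs at 16 hpf (ratio 0.255, 0.149 to 0.443). The gene summed over its 7 features had 37.7 CPM at 20 hpf and 32.0 CPM at 16 hpf. The other feature with 0 UMIs at 16 hpf among those with at least 50 UMIs, *antxr1l-1*, had 51 UMIs at 20 hpf, at least 3.32-fold higher against the same floor (exact lower bound 2.60). These features were chosen after their values were seen.

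The unnamed feature HER_9234.t1 had 120 CPM at 20 hpf and 19.2 CPM at 16 hpf (6.23, 3.90 to 10.6) and was highest at 20 hpf of all 7 ages, with 5.05 CPM at 12 hpf and 72.4 CPM at 24 hpf. A feature of *hypp-2441*, HER_42151.t1, had 25.8 CPM at 20 hpf and 176 CPM at 16 hpf (0.147, 0.115 to 0.186), against 18.1 CPM at 12 hpf and 13.7 CPM at 24 hpf. A feature of *hypp-2459*, HER_26318.t1, had 46.7 CPM at 20 hpf and 163 CPM at 16 hpf (0.286, 0.232 to 0.353). The receptor-related gene *lrp4l-2* had 163 UMIs at 20 hpf and 2 UMIs at 16 hpf (15.9, 4.34 to 132.5).

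Of 172 solute carrier genes with at least 50 UMIs, 11 were at least 2-fold higher and 5 at least 2-fold lower, with a median log2 ratio of 0.04, beside 4.03% and 2.15% of all genes. Of 48 genes of mitochondrial respiration 3 were at least 2-fold higher and 0 at least 2-fold lower, with a median of 0.18. Of 77 proteasome and chaperone genes 5 were at least 2-fold higher, among them *hsp901* (116 CPM at 20 hpf, 57.6 CPM at 16 hpf, ratio 2.01, 1.52 to 2.72), and 0 at least 2-fold lower. Of 17 hatching enzyme, astacin and metalloprotease genes 1 was at least 2-fold higher, *adamts14l*, with 82 UMIs at 20 hpf and 1 UMI at 16 hpf (16.0, 2.79 to 640), and 1 was at least 2-fold lower.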
